A study of Mus musculus with 6 samples.

Results

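The genes described here encode ion channels of the plasma membrane, of lysosomes and of the endoplasmic reticulum, together with proteins that bind to them and tune calcium and potassium channels. They were chosen by gene symbol alone, as every row of the deposited table that belongs to the potassium (Kcn), calcium (Cacn), TRP, sodium (Scn), chloride (Clcn, Clic), Orai and Stim, Stac, Piezo, mucolipin (Mcoln), TPC (Tpcn), inositol trisphosphate receptor (Itpr) and ryanodine receptor (Ryr) symbol families, and the proton channel gene Hvcn1. This gave 58 of the 16503 genes in the table. In the mouse annotation used here (GENCODE release M21 on GRCm38), 193 protein-coding genes match the same symbols, and those without a row were not analysed here.

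Expression was measured by RNA-seq in macrophages of wild type male C57BL/6J mice that were 6 to 12 weeks old when they were put on CDA-HFD, a high-fat diet that lacks choline and gives its protein as defined amino acids. All mice received this diet for 7 weeks, and it induces metabolic dysfunction-associated steatohepatitis (MASH). Liver cells that stained for B220, CD90.2, Ly6G, NK1.1 or SiglecF (B cells, T cells, neutrophils, NK cells and eosinophils) were gated out, and Tim4-negative, Ly6Clow F4/80+ CD11b+ macrophages were sorted by surface CD11c and Mincle into CD11chiMinclehi macrophages (n = 3 libraries) and CD11cloMinclelo macrophages (n = 3 libraries). The study asked whether these subsets correspond to hepatic lipid-associated macrophages (hLAMs) and to monocyte-derived Kupffer cells (moKCs).

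Macrophages are not electrically excitable in the way of nerve or muscle, but their membrane potential, cytosolic calcium and vesicle pH are set by ion channels. Calcium released from the endoplasmic reticulum is followed by entry through Orai channels, which STIM proteins open when the store is empty, and potassium channels keep the membrane negative so that calcium can go on entering. Lysosomes have their own cation channels and chloride-proton exchangers, which act in lysosome acidification, fusion and digestion. Proton channels and TRP channels of phagocytes are known for their part in the oxidative burst and in sensing oxidants, heat, osmolarity and stretch.

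Levels are in TPM, which scales reads by gene length and by the library total, so that levels of different genes can be compared. PCR duplicates were removed before counting, and the highest value in the table was 1381.5 TPM. Whether this removal lowered the levels or fold changes of abundant genes was not tested. From the spacing of low TPM values, each library was estimated to hold 7.0 to 8.13 M reads (M for mega). Every fold change is a difference of CD11chiMinclehi minus CD11cloMinclelo on the log2(TPM + 1) scale. It understates the change of genes at a few TPM. The ± beside a fold change is its standard error. For a level in TPM, the ± is the SD over the libraries of a group. A gene was called when its Benjamini-Hochberg adjusted p from limma over all 16503 genes was under 0.05. The labels number the libraries of both groups, and deviations of libraries with 1 number correlated weakly to moderately (0.12 to 0.36). Values with the replicate number as a block (called the paired model below) are therefore given where they change a call. This pairing was taken from the same data, and the study does not state one for these libraries. The column names of the deposited table carry the same non-consecutive numbers in both groups. The study also compared these subsets by paired tests in its qPCR and cytokine assays. Macrophage markers were high in both groups (8 of 8 measured, summed TPM 4480 to 4540 in CD11chiMinclehi and 4420 to 4970 in CD11cloMinclelo libraries), with Adgre1 and Fcgr1 called lower in CD11chiMinclehi macrophages in the paired model. In sorted bulk RNA, fewer cells of a type and less RNA per cell cannot be told apart.

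The channel genes with a row spanned most of the ranking by mean level in the table, from percentile 2.1 (Clic3) to 98.5 (Clic4). Their median level over the 6 libraries was 22.4 TPM, against 22.7 TPM over all genes in the table. Gene means in the table began at 1.00 TPM, and both medians leave out genes without a row. At the top, 14 had a mean of 100 TPM or more, led by the chloride channel-like proteins Clic4 and Clic1. At the bottom, 17 had a mean under 5 TPM, and 7 were listed at 0 in at least 1 library. Between these, the members of 1 family often differed more from each other than the same gene did between the subsets, as the plot of group means by family shows.

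**Figure D1:**
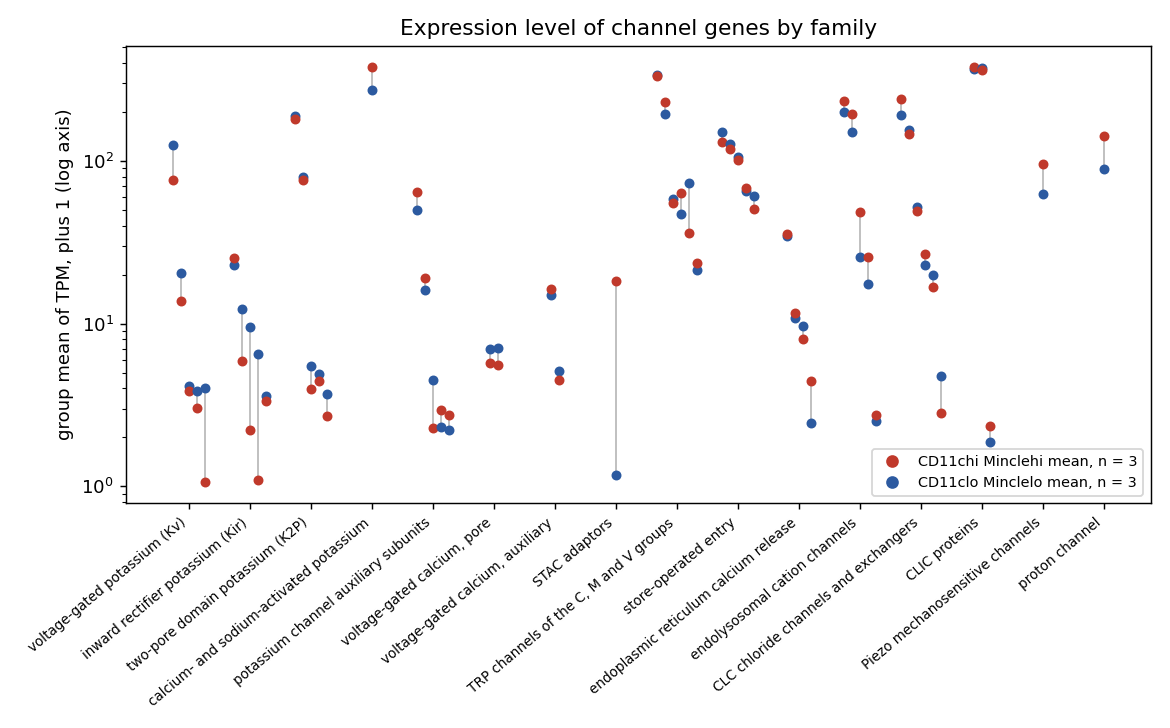
Mean TPM plus 1 (log axis) of channel genes in CD11chiMinclehi (red) and CD11cloMinclelo (blue) macrophages (n = 3 libraries each), grouped by family, with a grey line joining the means of 1 gene. Stac2, Kcnj16, Kcnj9 and Kcna2 have the longest lines, while the means of Clic4, Clic1 and Trpc4ap nearly coincide.

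Of the 58 channel genes, 3 were called, all of them higher in CD11chiMinclehi macrophages: Stac2, an adaptor of voltage-gated calcium channels, Kcnn4, a calcium-activated potassium channel, and Hvcn1, the voltage-gated proton channel. Over all genes 0.77% were called higher. None of the 58 was called lower, against 0.454% of all genes, while 6 were lower and 10 higher at an unadjusted p under 0.05 in limma. In the paired model 5 channel genes were called higher, where the background is 1.67%, and 2 were called lower, where it is 1.75%. The additional calls were Piezo1 and Tpcn2 (higher) and Kcna3 and Trpm2 (lower). The other 51 were called in neither model. Genes called only with the block tend to have their replicates in a similar order in both groups. Such an order, given below for some of them, is therefore no support for the pairing.

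Counted by overlap instead, all 3 CD11chiMinclehi libraries lay above all 3 CD11cloMinclelo libraries for 11 channel genes, and below them for 7. Over all genes these shares were 9.25% and 9.22%. The 11 were Clcn7, Hvcn1, Kcnab2, Kcnn4, Mcoln1, Mcoln2, Piezo1, Ryr1, Stac2, Tpcn2 and Trpv2, and the 7 were Cacna1f, Kcna2, Kcna3, Kcnj16, Kcnj9, Orai2 and Trpm2. Fold changes were balanced in sign, with 29 genes above 0 and 29 below, and a median of 0.011 against -0.01 over all genes. There were 6 with a fold change of at least 1 on the log2 scale in either direction, and 8.14% of all genes had one. Among the 23 channel genes with a mean of 50 TPM or more, the median size of the fold change was 0.233, against 0.103 over the 5773 genes at such levels, and below 5 TPM it was 0.478 against 0.459.

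**Figure D2:**
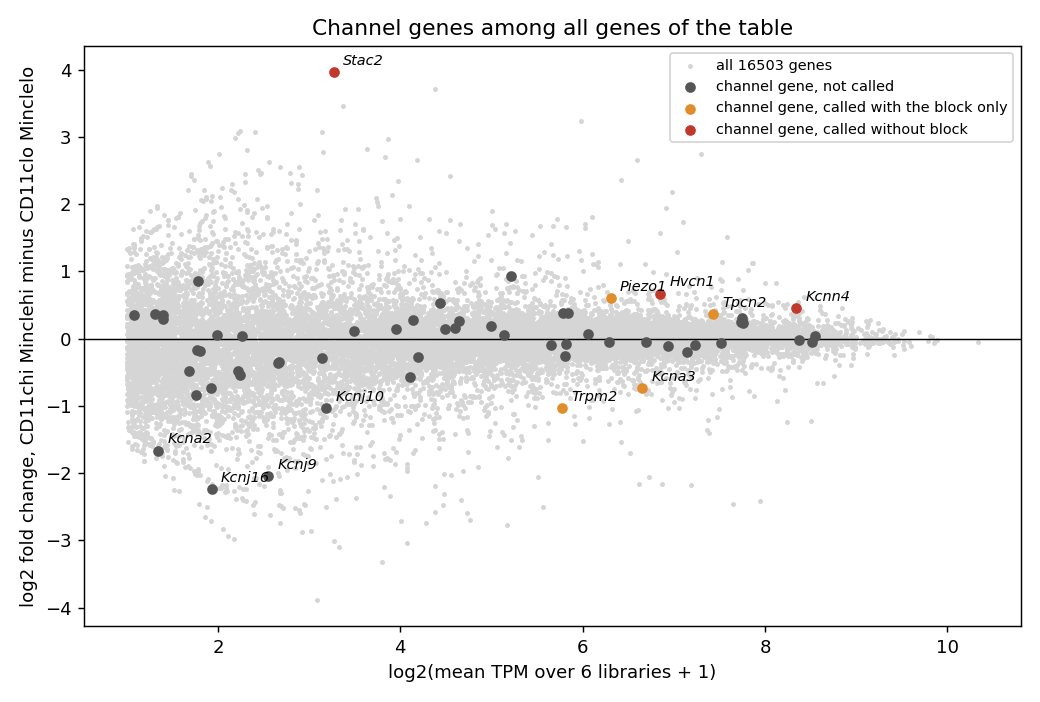
Log2 fold change (CD11chiMinclehi minus CD11cloMinclelo, log2(TPM + 1) scale) against log2(mean TPM over 6 libraries + 1) for all 16503 genes (light grey) and the 58 channel genes (dark grey, orange where called in the paired model only, red where called without the block). Stac2 has the largest fold change of the 58, and Kcnn4 is called at a small fold change and a high level.

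Stac2 showed the largest difference. STAC proteins are cytosolic adaptors that bind voltage-gated calcium channels of the L type and alter how they inactivate or reach the membrane. Stac2 was at 13.7, 22.7 and 15.2 TPM in the CD11chiMinclehi libraries. In the CD11cloMinclelo libraries it was at 0, 0.504 and 0 TPM. The groups were far apart, and the gene was nearly undetected in CD11cloMinclelo macrophages. The fold change was 3.96 ± 0.40 (adjusted p = 0.011; 0.00535 in the paired model). In estimated reads the CD11cloMinclelo libraries held 3 in all, and the CD11chiMinclehi libraries 291, a ratio of 95 at equal depth with an exact counting interval (95%) of 32.2 to 463, which covers counting error only. As gene means in the table began at 1.00 TPM, Stac2 has a row only through its CD11chiMinclehi libraries. Without CD11chiMinclehi replicate 1 or replicate 2, the adjusted p was 0.0702 or 0.0665. It was the only one of the 3 annotated STAC genes with a row in the table.

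The L-type channels that STAC proteins bind were measured at low levels, with fold changes below 0 that did not pass the test. Cacna1d, a pore subunit, was at 4.73 ± 1.92 TPM in CD11chiMinclehi and 5.99 ± 0.79 TPM in CD11cloMinclelo macrophages (fold change -0.34 ± 0.38). Cacna1f, another pore subunit, was at 4.56 ± 0.41 TPM against 6.12 ± 0.29 TPM, with every CD11chiMinclehi library below every CD11cloMinclelo library, but it did not pass the test (fold change -0.36 ± 0.31, adjusted p = 0.723). These were the only members of the 10 annotated pore genes in the table. The 2 auxiliary subunits measured, which carry the pore to the membrane, overlapped between the groups. Cacnb1 was at 15.2 ± 1.8 against 13.9 ± 3.2 TPM, and Cacnb3 at 3.50 ± 1.18 against 4.10 ± 3.73 TPM. Part of the Cacna1d and Cacnb1 exons is also annotated to Chdh and to Gm11629 on the other strand, and the strand setting of the counting is not given in the sources used here.

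**Figure D3:**
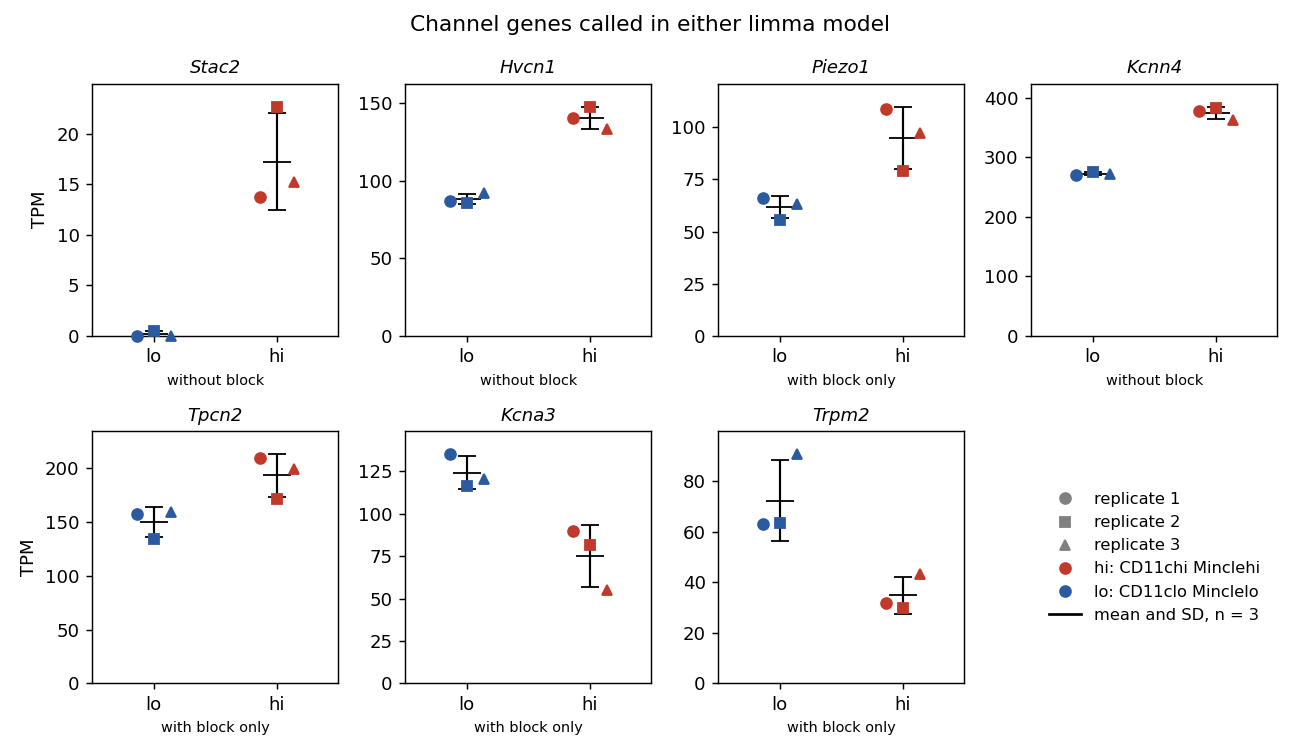
TPM of the 7 channel genes called with or without the replicate block, per library (symbols mark replicates 1 to 3), with mean and SD (n = 3) for CD11cloMinclelo (lo, blue) and CD11chiMinclehi (hi, red) macrophages. In each panel the groups do not overlap, and the line under the axis says which model called the gene.

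Among potassium channels, the calcium-activated channel was higher in CD11chiMinclehi macrophages, while Kv and Kir genes had their fold changes mostly below 0. Kcnn4 (chr7:24370263-24386690, plus strand) encodes the calcium-activated potassium channel of intermediate conductance, which opens through bound calmodulin and hyperpolarizes the cell. It was at 378, 383 and 362 TPM in the CD11chiMinclehi libraries and at 271, 276 and 271 TPM in the CD11cloMinclelo libraries. The replicates lay close together and the groups were well apart, at means of 374 ± 10.7 and 273 ± 2.78 TPM. The fold change was 0.46 ± 0.04 (adjusted p = 0.00834; 0.00467 in the paired model), and the adjusted p was 0.0702 without CD11chiMinclehi replicate 1 and 0.169 without the mean-variance trend. By level Kcnn4 ranked 4 among the 58. It is on the hLAM signature list that the study took from earlier work, and no other gene of its family of 8 had a row.

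Kv channels open on depolarization and carry the delayed potassium current of immune cells. Kcna3, the main Kv gene here, was at 134.9, 116.4 and 120.5 TPM in CD11cloMinclelo libraries and at 89.6, 81.3 and 54.8 TPM in CD11chiMinclehi libraries. Every CD11chiMinclehi library was below every CD11cloMinclelo library, and the fold change was -0.74 ± 0.17 (adjusted p = 0.109; 0.0317 in the paired model). Kcna3 is also highly expressed by lymphocytes, which the sort gated out by B220 and CD90.2. B cell markers (4 of 4 measured, none of them called) were lower in CD11chiMinclehi libraries as a sum, at 111 to 159 against 182 to 222 TPM, most of it from Cd79b. T cell markers (4 of 4 measured, none of them called) summed to 4.83 to 133 against 1.31 to 189 TPM. The part of these cells in the Kcna3 difference was not tested.

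Kcna2, which lies 63.1 kb from Kcna3 on chromosome 3, was at 0, 0 and 0.181 TPM in CD11chiMinclehi and at 0.297, 4.69 and 4.08 TPM in CD11cloMinclelo libraries. The groups were apart, but the lowest CD11cloMinclelo library was close to the highest CD11chiMinclehi library (fold change -1.66 ± 0.68, adjusted p = 0.358). With gene means in the table from 1.00 TPM, Kcna2 has a row only through its CD11cloMinclelo libraries. Kcng2 encodes a silent subunit that works only with other Kv subunits, and it was at 12.8 ± 2.8 against 19.6 ± 4.9 TPM (adjusted p = 0.437). Kcnd1 and Kcnq1 were under 5 TPM on average and overlapped between the groups. Summed over the 5 Kv genes, of 40 annotated, the level was 73.8 to 109.4 TPM in CD11chiMinclehi and 142.7 to 157.3 TPM in CD11cloMinclelo libraries, most of it from Kcna3.

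Inward rectifiers (Kir) pass potassium near the resting potential and help to set it. Of the 5 measured, from 15 annotated, 4 had fold changes below 0, and none was called in either model. Kcnj9 was at 0.559, 1.19 and 1.94 TPM in CD11chiMinclehi and at 9.41, 4.35 and 11.7 TPM in CD11cloMinclelo libraries. The groups were apart, with a fold change of -2.05 ± 0.48 (adjusted p = 0.109; 0.0664 in the paired model). Kcnj16 was at 0.276, 0 and 0 TPM against 3.00, 1.56 and 12.03 TPM. Its CD11cloMinclelo libraries spread widely, and the fold change was -2.24 ± 0.67 (adjusted p = 0.208). In estimated reads Kcnj16 had 2 in all CD11chiMinclehi libraries and 112 in all CD11cloMinclelo libraries, a ratio of 57.2 with a counting interval of 15.5 to 478, which again covers counting error only. Gene means in the table began at 1.00 TPM, so Kcnj16 has a row only through its CD11cloMinclelo libraries. CD11cloMinclelo replicate 3 held 80 of the 112, and without it, a setting chosen after the data were seen, the ratio was 23.8 (6.08 to 205). Kcnj10, whose product can pair with that of Kcnj16, was at 3.31, 3.73 and 7.69 TPM against 6.22, 10.9 and 16.9 TPM. Here the groups overlapped, although the CD11chiMinclehi library was the lower one in each of the 3 numbered pairs (fold change -1.04 ± 0.45, adjusted p = 0.385). Kcnj2, the most abundant Kir gene, was at 24.5 ± 2.2 against 22.0 ± 4.1 TPM, and Kcnj8 was under 5 TPM in both groups.

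The low Kir and Kv genes belong in part to a moKC signature from earlier work that the study used, which holds Kcna2, Kcnj10, Kcnj16, Kcnk6 and Trpm2. Kupffer cell markers (5 of 5 measured) summed to 305 to 634 TPM in CD11chiMinclehi and 1010 to 1730 TPM in CD11cloMinclelo libraries. Of these, Clec4f, Vsig4 and Cd5l were called lower in the paired model, and Timd4, which encodes the Tim4 protein that the sort removed, was at 0 to 3.19 against 0.814 to 3.77 TPM. Fibroblast markers (5 of 5 measured) also were lower as a sum, at 96 to 123 against 148 to 210 TPM. Of these, Dcn was called lower in both models and Col3a1 in the paired model (adjusted p = 0.217 without the block and 0.0358 with it), while Pdgfrb had a fold change of 0.64 and was called in neither. The part of these cells in the channel differences was not tested. Part of Kcnj9 overlaps the antisense gene Gm36937.

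K2P channels are potassium leak channels that stay open at rest. Neither of their 2 abundant members was called, and their intervals were narrow. Kcnk13 was at 178 ± 20.7 against 187 ± 11.01 TPM, a fold change of -0.07 with a 95% interval of -0.29 to 0.15. Kcnk6 was at 75.7 ± 5.0 against 78.4 ± 6.1 TPM, a fold change of -0.05 with an interval of -0.28 to 0.18. Kcnk12, Kcnk5 and Kcnk1 were at means of 1.70 to 4.52 TPM and overlapped. Of the auxiliary potassium channel genes, Kcnab2, a beta subunit of Kv channels with an aldo-keto reductase fold, was at 63.8, 59.9 and 66.7 TPM in CD11chiMinclehi and 44.1, 49.4 and 53.0 TPM in CD11cloMinclelo libraries. No library overlapped (fold change 0.37 ± 0.11, adjusted p = 0.202). Kcne3, a membrane-spanning partner of Kv pores, was at 18.2 ± 7.4 against 15.1 ± 7.8 TPM. Kcnab3, Kcnrg and Kcnip3 were at means of 1.21 to 3.50 TPM and overlapped.

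**Figure D4:**
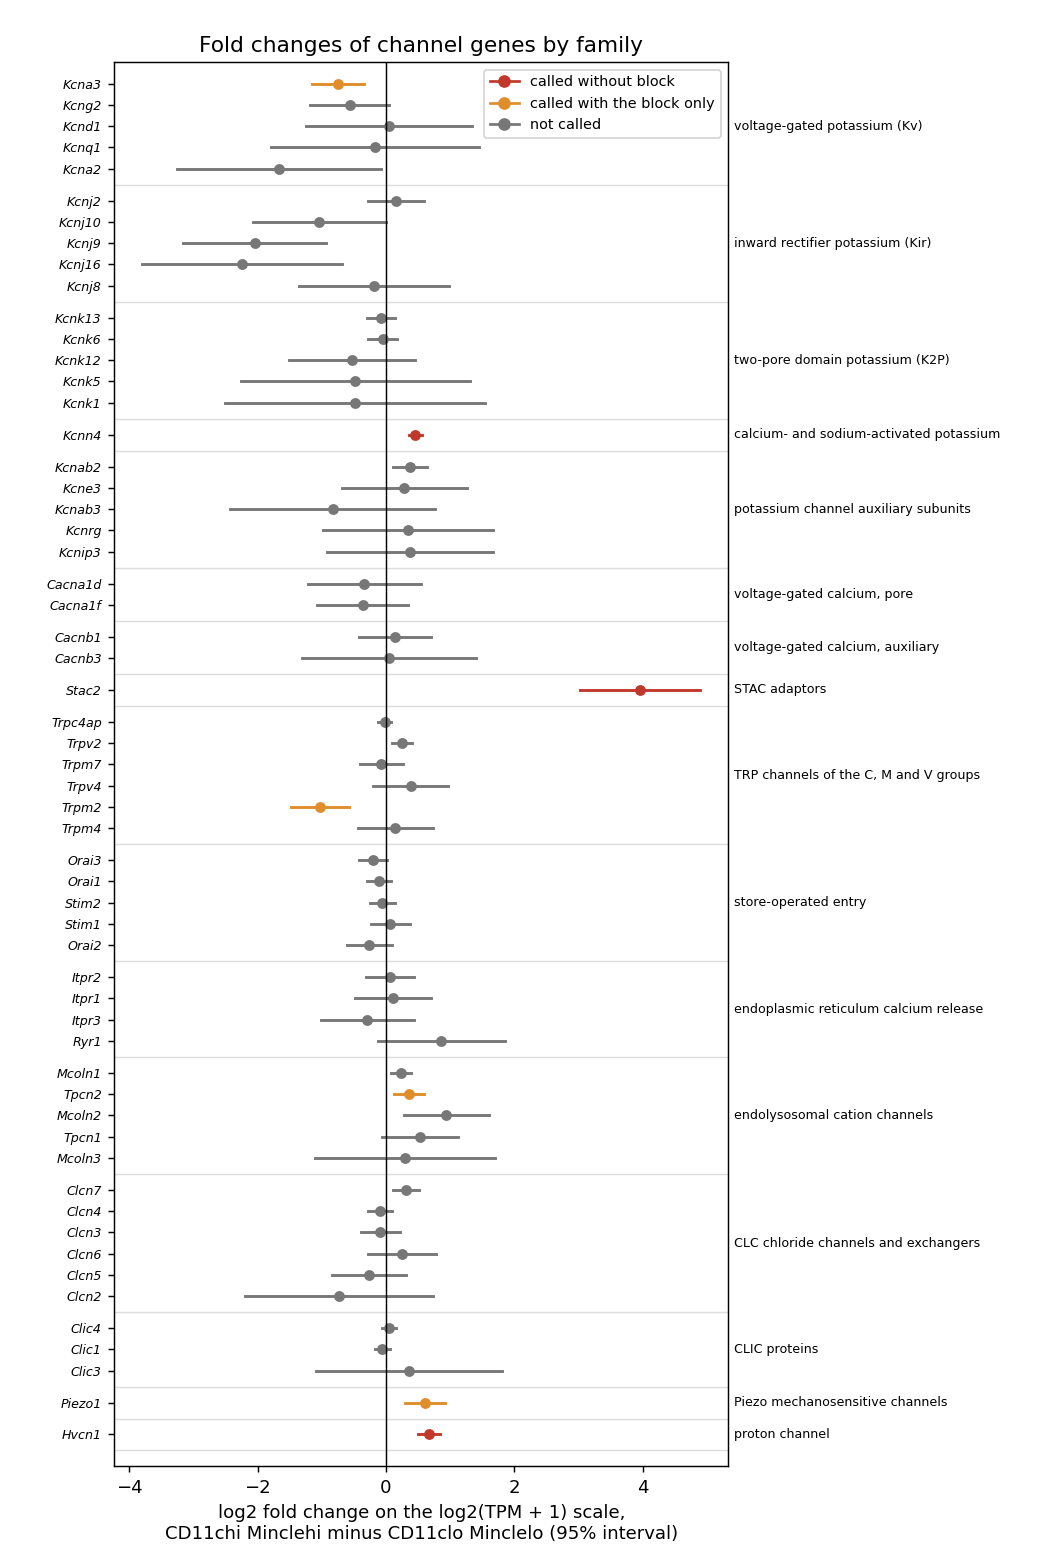
Log2 fold changes (CD11chiMinclehi minus CD11cloMinclelo, log2(TPM + 1) scale) of channel genes by family, with 95% intervals from limma without the block. The interval is narrow for abundant genes such as Kcnn4 (0.36 to 0.56) and Clic4 (-0.07 to 0.15) and wide for genes at a few TPM such as Kcnk1 (-2.51 to 1.54).

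All 5 annotated genes of store-operated calcium entry had a row, at means of 54.8 to 140 TPM, and none was called in either model. Orai3 was the most abundant Orai pore gene, at 130 ± 8.8 against 150 ± 16.2 TPM (fold change -0.20 ± 0.09, adjusted p = 0.437). Orai1, the pore of the classical calcium release-activated current, was at 117 ± 6.5 against 126 ± 8.8 TPM, a fold change of -0.10 with a 95% interval of -0.29 to 0.08. Orai2 was at 50.7, 47.4 and 50.2 TPM in CD11chiMinclehi and 52.2, 74.7 and 53.4 TPM in CD11cloMinclelo libraries, so that the groups were apart by a small margin (adjusted p = 0.548). The sensors of store calcium overlapped between the groups, Stim1 at 67.1 ± 6.2 against 64.1 ± 8.6 TPM and Stim2 at 100.4 ± 5.1 against 104.3 ± 6.8 TPM. Of 13 regulators of this pathway listed beside them, 12 were measured and none was called in either model.

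Of the calcium release channels of the endoplasmic reticulum, 4 of 6 annotated had a row and none was called in either model. Itpr2, the most abundant inositol trisphosphate receptor, was at 34.7 ± 1.5 against 33.6 ± 6.0 TPM (fold change 0.06, interval -0.31 to 0.44). Itpr1 was at 10.7 ± 1.0 against 9.86 ± 1.76 TPM and Itpr3 at 6.99 ± 2.10 against 8.64 ± 1.48 TPM. Ryr1, the ryanodine receptor of skeletal muscle, was low in both subsets, at 4.15, 3.32 and 2.76 TPM in CD11chiMinclehi and 1.68, 1.83 and 0.843 TPM in CD11cloMinclelo libraries. Again the groups were apart (fold change 0.86 ± 0.43, adjusted p = 0.46), and part of the Ryr1 exons is also annotated to genes on the other strand. Of the 12 phospholipase C and inositol trisphosphate kinase genes listed, 10 were measured and none was called in either model.

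Of 23 annotated genes of the TRP symbol family 6 had a row, and Trpm2 was called lower in the paired model. Trpm2 encodes a calcium-permeable channel that opens on ADP-ribose and calcium and is known as a sensor of oxidative stress in myeloid cells. It was at 31.9, 29.7 and 43.2 TPM in CD11chiMinclehi and at 63.0, 63.4 and 90.7 TPM in CD11cloMinclelo libraries. The groups did not overlap, replicate 3 was the highest of its group in both, and the level was lower in CD11chiMinclehi macrophages in each of the 3 numbered pairs. The fold change was -1.03 ± 0.20, with an adjusted p of 0.055 without the block, 0.00688 in the paired model and 0.0463 when only genes with a mean of 5 TPM or more were tested. Trpm2 is also expressed by neutrophils, which the sort gated out by Ly6G and whose markers (6 of 7 measured, none called without the block and Mmp8 called higher with it) summed to 129 to 372 TPM in CD11chiMinclehi and 80.6 to 362 TPM in CD11cloMinclelo libraries, and their part was not tested.

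Trpv2, a cation channel that macrophages place in the membrane during phagocytosis, was the most abundant TRP channel at 232.5, 243 and 215 TPM in CD11chiMinclehi and 201, 196 and 181 TPM in CD11cloMinclelo libraries. Its groups did not overlap (fold change 0.25 ± 0.07, adjusted p = 0.153; 0.0565 in the paired model). Trpc4ap matched the symbol rule but encodes a protein that binds a TRPC channel and is no channel itself, and it was at 329 ± 6.3 against 334 ± 9.1 TPM. Trpm7, a channel fused to a kinase that carries magnesium, was at 54.2 ± 7.6 against 56.9 ± 6.6 TPM. Trpv4, opened by warmth and cell swelling, was at 62.5 ± 21.3 against 46.2 ± 8.0 TPM, and Trpm4, opened by calcium, at 22.7 ± 5.4 against 20.4 ± 4.7 TPM. In each of these 4 the groups overlapped.

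Piezo1, the channel by which macrophages sense stretch and stiffness, was at 109, 79.2 and 97.2 TPM in CD11chiMinclehi and at 66.2, 55.7 and 63.2 TPM in CD11cloMinclelo libraries. The groups were apart, and the library numbered 2 was the lowest of its group in both. The fold change was 0.61 ± 0.13 (adjusted p = 0.0871; 0.0196 in the paired model). Part of the Piezo1 exons overlaps Ctu2 on the other strand. Panx1, a channel outside the symbol families that releases ATP, was at 49.6 ± 5.5 against 29.7 ± 0.99 TPM (fold change 0.71 ± 0.13, adjusted p = 0.0502; 0.0458 in the paired model). It was the only gene called in either model among 27 measured genes of other channels, of 40 listed. Over all genes 1.67% were called higher in the paired model.

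The cation channels of endosomes and lysosomes all had fold changes above 0, where 48.1% of all genes had one. All 5 annotated genes had a row, and their summed level was 489.5 to 508.3 TPM in CD11chiMinclehi and 377.1 to 403.3 TPM in CD11cloMinclelo libraries. None was called without the block. Mcoln1, the calcium channel of lysosomes that mucolipidosis type IV disables, was at 230.3, 247.5 and 223 TPM against 190, 213 and 193.5 TPM. These did not overlap, with a fold change of 0.23 ± 0.07 (adjusted p = 0.189; 0.0675 in the paired model). Tpcn2, a TPC channel for sodium and calcium, was at 209, 171 and 199 TPM against 157, 134 and 159 TPM. Its groups were apart, with replicate 2 the lowest in both, and the fold change was 0.36 ± 0.10 (adjusted p = 0.161; 0.0236 in the paired model). Mcoln2, a relative found in recycling endosomes of macrophages, was at 49.1, 60.1 and 33.8 TPM against 16.8, 24.2 and 32.9 TPM. The lowest CD11chiMinclehi and the highest CD11cloMinclelo library nearly met, and the fold change was 0.94 ± 0.28 (adjusted p = 0.213). Tpcn1 was at 24.6 ± 6.8 against 16.6 ± 3.6 TPM with overlap, and Mcoln3 was at 1.73 ± 0.40 against 1.53 ± 1.33 TPM. The CD11cloMinclelo libraries of Mcoln3 were at 0, 2.40 and 2.18 TPM. Its fold change of 0.29 had an interval of -1.11 to 1.69.

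Of the CLC proteins, 6 of 9 annotated genes had a row and none was called in either model. Clcn7 encodes the chloride-proton exchanger of lysosomes and of the resorbing membrane of osteoclasts. It was at 234, 267.5 and 211 TPM in CD11chiMinclehi and 184, 201 and 187 TPM in CD11cloMinclelo libraries. The groups did not overlap, and the fold change was 0.31 ± 0.09 (adjusted p = 0.182; 0.0507 in the paired model), which did not pass the test. Clcn4, an endosomal exchanger, was at 144 ± 12.7 against 153.5 ± 7.8 TPM (fold change -0.09, interval -0.28 to 0.10). Clcn3 was at 47.8 ± 3.3 against 51.1 ± 6.4 TPM, Clcn6 at 25.9 ± 3.3 against 21.9 ± 6.2 TPM, and Clcn5 at 15.8 ± 4.5 against 18.8 ± 0.93 TPM. Clcn2, a chloride channel of the plasma membrane, was at 1.83 ± 1.40 against 3.76 ± 2.63 TPM. In these 5 the groups overlapped.

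Promoters of lysosomal genes are known to carry an E-box of the CLEAR type, TCACGTGA, which is bound by TFEB and its relatives. RefSeq promoter windows on GRCm38.p6, of 250 bases before and 50 bases after a gene start, were found for 47 of the 58 channel genes (64 windows), and Stac2 and Hvcn1 are among the 11 with no entry. The 8 letters, which read the same on both strands, stood in 5 of these windows (7.81%), against 0.974% of all 32851 windows. The 5 genes were Mcoln1, Clcn7, Clcn6, Trpm7 and Orai2, and each is shown with the E-box in capitals, 5′ to 3′ on the strand of the gene, to show where the motif lies. The windows of the other lysosomal and endosomal genes that were found (Mcoln2, Mcoln3, Tpcn2, Clcn3, Clcn4 and Clcn5) did not hold these letters.
Mcoln1, chr8:3500462-3500491 (+): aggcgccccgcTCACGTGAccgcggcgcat
Clcn7, chr17:25133386-25133415 (+): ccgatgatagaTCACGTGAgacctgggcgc
Clcn6, chr4:148038821-148038850 (-): cccggggccagTCACGTGAggcgcggatcc
Trpm7, chr2:126876269-126876298 (-): aagcgcgccctTCACGTGAcacgccctccg
Orai2, chr5:136170690-136170719 (-): ccacggatgggTCACGTGAcggcggcgcag

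The motif began 26 bases before the gene start in Clcn6 and Trpm7, 46 bases before it in Mcoln1 and 52 bases before it in Orai2, while in Clcn7 it lay just after the start. The 5 genes did not share a direction, with fold changes of 0.23 for Mcoln1, 0.31 for Clcn7 and 0.26 for Clcn6, against -0.07 for Trpm7 and -0.26 for Orai2, and none of the 5 was called in either model. Other motifs were searched on both strands of the same windows. The EGR motif GCGNGGGCG stood in 7.81% of the channel gene windows (Cacna1d, Clic4, Itpr3, Stim1 and Stim2) and in 5.55% of all windows. The AP-1 motif TGANTCA stood in 4.69% (Clic1, Kcne3 and Kcnip3) against 7.81%, and the PU.1 motif GAGGAAGT in 4.69% (Mcoln3, and Trpv2 with overlapping windows that hold the same match) against 3.2%. None of the genes with these 3 motifs was called in either model, where of the 3 genes called without the block only Kcnn4 had a window. A match is a run of letters and not a measured binding site.

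Hvcn1, the voltage-gated proton channel, was higher in CD11chiMinclehi macrophages. The channel lets protons leave the cytosol and so offsets the charge that the NADPH oxidase of phagocytes moves. Hvcn1 (chr5:122206804-122242297, plus strand) was at 140.7, 147.8 and 133.5 TPM in CD11chiMinclehi and at 87.0, 85.3 and 91.8 TPM in CD11cloMinclelo libraries. The groups were well apart, with a fold change of 0.67 ± 0.07 (adjusted p = 0.0155; 0.011 in the paired model). The call was lost, with an adjusted p of 0.0528 to 0.0833, without CD11chiMinclehi replicate 1 or 2 or CD11cloMinclelo replicate 1 or 2, and the adjusted p was 0.128 without the mean-variance trend. Part of the Hvcn1 exons overlaps Tctn1 on the other strand. Hvcn1 is also expressed by B cells and neutrophils. The sort gated out cells positive for B220 or Ly6G. The summed levels of the markers of both cell types are given with Kcna3 and Trpm2, and of these Mmp8 was called higher in the paired model. The other neutrophil markers were called in neither model and differed in sign. Fold changes were 0.59 for S100a8, 1.46 for Camp and 2.03 for Ngp, against -0.63 for S100a9 and -1.61 for Retnlg. Their part in the Hvcn1 difference was not tested.

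The 2 most abundant channel genes were not called, and their intervals were narrow. CLIC proteins exist in a soluble and a membrane form, and Clic1 is known from activated macrophages. Clic4 was at 377 ± 3.8 against 367 ± 17.8 TPM (fold change 0.04, interval -0.07 to 0.15), and Clic1 at 358 ± 10.2 against 372 ± 17.9 TPM (fold change -0.06, interval -0.17 to 0.06). Clic3 was the lowest of the 58, at 1.36 ± 1.15 against 0.878 ± 0.96 TPM.

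Several channel genes lie next to each other in the genome, and neighbours did not always share their pattern. Stac2 (chr11:98036623-98053462, minus strand) lies 13.6 kb from Cacnb1 with 1 coding gene between them, and only Stac2 was called. Kcnj16 lies 38.2 kb from Kcnj2 on chromosome 11, and their fold changes of -2.24 and 0.16 had opposite signs. Kcnj9 and Kcnj10 lie 11.9 kb apart on chromosome 1, on opposite strands, and both had fold changes below -1. Mcoln2 and Mcoln3 lie 8.0 kb apart on chromosome 3, where Mcoln3 was near the lower limit of the table at means of 1.53 and 1.73 TPM. These coordinates are from GENCODE M21 on GRCm38, and the differences between neighbours were not tested.

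**Figure D5:**
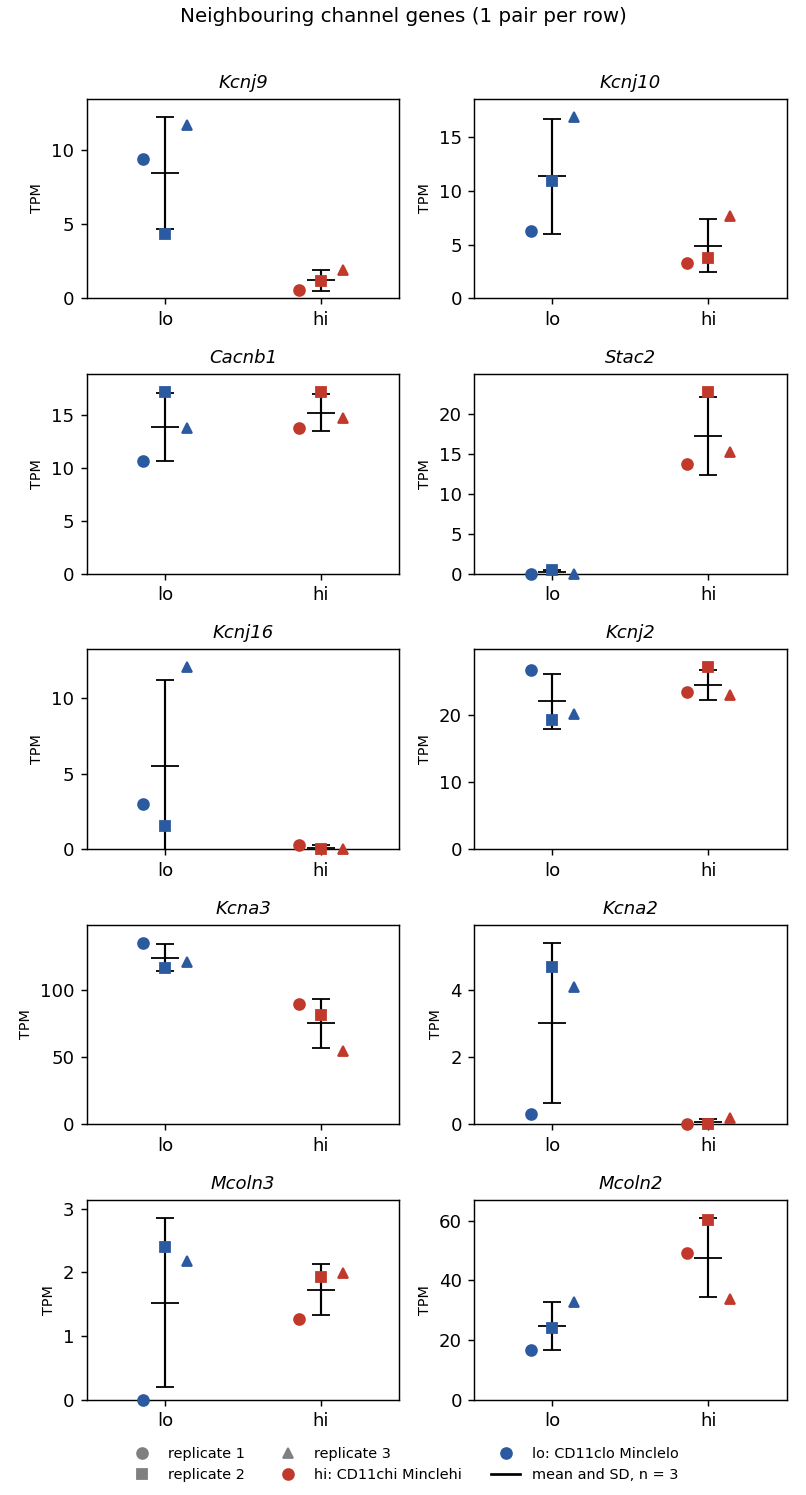
TPM per library (symbols mark replicates 1 to 3) with mean and SD (n = 3) for pairs of channel genes that lie next to each other or with 1 coding gene between them, 1 pair per line of panels, in CD11cloMinclelo (lo, blue) and CD11chiMinclehi (hi, red) macrophages. Stac2 is high in CD11chiMinclehi libraries only while Cacnb1 overlaps, and Kcnj9 and Kcnj10 are both lower on average in CD11chiMinclehi libraries, with overlap in Kcnj10.

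Genes that work with the channels were described from lists of partners. Among 25 genes of calmodulin, calcineurin, NFAT and the CaM kinases, 23 were measured and 2 were called lower in CD11chiMinclehi macrophages. Over all genes 0.454% were called lower, and 1.75% in the paired model. Chp2, a calcineurin-like calcium-binding partner of sodium-proton exchangers, was at 2.98, 3.57 and 8.16 TPM in CD11chiMinclehi and at 21.5, 27.1 and 55.3 TPM in CD11cloMinclelo libraries, with no overlap (fold change -2.58 ± 0.44, adjusted p = 0.0425). Camkk1, a kinase that activates other CaM kinases, was at 10.5, 15.3 and 15.9 TPM against 30.3, 47.8 and 33.6 TPM, again with no overlap (fold change -1.35 ± 0.24, adjusted p = 0.0489). Both calls were lost without any 1 of the 6 libraries, at adjusted p of 0.0506 to 0.158 for Chp2 and 0.0873 to 0.157 for Camkk1. Rcan1, an inhibitor of calcineurin, was called lower in the paired model only (fold change -0.26, adjusted p = 0.0334).

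Of the genes of sodium, potassium and proton transport, the endosomal sodium-proton exchanger Slc9a9 was called lower in the paired model only (fold change -0.88, adjusted p = 0.0262). Of 20 calcium pumps and exchangers, 16 were measured and none was called without the block, while Mcub, the pore subunit that dampens mitochondrial calcium uptake, was called higher in the paired model (fold change 0.31, adjusted p = 0.0314). In that model 1.67% of all genes were called higher and 1.75% lower.

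Markers of the other cell types overlapped between the groups as sums. In CD11chiMinclehi against CD11cloMinclelo libraries they were 292 to 418 against 399 to 588 TPM for Ly6Chi monocytes (4 of 4 measured) and 72.3 to 184 against 58.1 to 250 TPM for dendritic cells (6 of 6). Platelet markers summed to 183 to 279 against 272 to 395 TPM (3 of 5), and endothelial markers to 59.8 to 113 against 69.7 to 198 TPM (6 of 6). Hepatocyte markers were at 805 to 1500 against 896 to 1240 TPM (5 of 5) in spite of the sort. NK cell markers (4 of 4) were at 9.4 to 60.2 against 14.3 to 87.2 TPM, and erythroid markers (3 of 4) at 12.9 to 167 against 15 to 219 TPM. Of these 7 types no marker gene was called without the block, Plac8 (monocyte), Pf4 (platelet) and Cdh5 (endothelial) were called lower in the paired model, and their part in the channel differences was not tested.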

How the data were processed

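RNA-seq of sorted liver macrophages was analysed in 6 libraries, which the labels call biological replicates. Whether libraries of 1 number share a mouse is not stated, so p-values measure the spread between these libraries. Poly(A)-selected, strand-specific libraries were trimmed (Trimmomatic 0.39.0), aligned to GRCm38 (HISAT2 2.2.1), cleared of PCR duplicates (Picard) and counted (featureCounts 2.0.1). From these counts and mm10 gene lengths the authors calculated TPM, the unit of the deposited table. Which annotation release and strand setting they counted with is not given in the sources used here. Gene means in the table began at 1.00 TPM.

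TPM keeps no depth. With GENCODE M21 exon lengths, 75.7% to 82.5% of the low values of a library were whole multiples (tolerance 0.05) of a common step, against 10% by chance. Taking that step as 1 read (it could be 1 pair) gave the estimated reads. They rest on an annotation that may differ from the one used for the table.

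Log2(TPM + 1) was tested with limma 3.58.1 in R 4.3.3 (mean-variance trend, two-sided, all 16503 genes, no block), checked on simulated data. Deviations from group means correlated over genes at 0.36, 0.20 and 0.12 between libraries numbered 1, 2 and 3, each library correlating best with its own number, and on this the numbers were treated as pairs. Alternatives were other pseudocounts, a filter at 5 TPM, rescaling, no trend, the block and leaving out each library. Full values are given for genes called in either model, genes with a fold change of at least 1 (log2), 5 TPM in 1 group and no overlap, the 2 most abundant of each family, and genes on the study's signature lists. The remaining channel genes are named with their levels, except that single results are not reported here and not plotted by family. The genes, lists and rules were chosen with earlier results of these data known. Promoter sequences are from RefSeq.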

Additional observations from a re-analysis of the deposited data

How the results depend on the processing

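With the replicate number as a block, 7 channel genes in 7 families were called in place of 3 in 3, 7 partner genes in place of 3, and 564 of all genes in place of 202. It changed no other call of a named channel gene than those of Kcna3, Trpm2, Piezo1 and Tpcn2. Without the mean-variance trend, 1 channel gene in 1 family (Stac2), 0 partner genes and 19 of all genes were called. Leaving out each library in turn gave 0 to 3 channel genes in 0 to 3 families, 0 to 1 partner genes and 6 to 92 of all genes; the 0 came without CD11chiMinclehi replicate 1, and 1 (Kcnn4) remained without CD11chiMinclehi replicate 2. These fits have fewer samples, and genes at 0 in all remaining libraries were left out of them. The median fold change of the channel genes was 0.061 with the filter at a mean of 5 TPM, which leaves fewer genes, and -0.038 to 0.043 when single libraries were left out, with -0.038 without CD11cloMinclelo replicate 1. Fold changes near 0 changed sign when single libraries were left out, which gave -0.138 to 0.025 for Kcnk13 (above 0 without CD11chiMinclehi replicate 2), and -0.03 to 0.65 for Kcne3, -0.022 to 0.296 for Cacnb1 and -0.073 to 0.18 for Itpr2 (each below 0 without CD11cloMinclelo replicate 1). That of Cacnb3 ranged from -0.437 to 0.605, below 0 without CD11chiMinclehi replicate 2 or 3 or CD11cloMinclelo replicate 1 or 3, and was -0.031 with a pseudocount of 5. For genes at a few TPM, differences within their wide intervals could not be detected with these libraries.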
